A study of Mus musculus with 6 samples.

Results

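The genes described here are 8 chemokine receptors of mouse lymphocytes: Ccr2, Ccr7, Ccr8, Ccr9, Cxcr3, Cxcr4, Cxcr6 and Cx3cr1. They were chosen by symbol from the 55450 genes of the table, and all 8 were found, each once. The 6 bulk RNA sequencing libraries came from lymphocytes sorted from mammary tissue late in pregnancy (E18.5), with 3 libraries of CD8 beta+ T cells and 3 of double negative (DN) NK1.1+ lymphocytes. By its title, the study concerns maternal lymphocytes of the mammary epithelium and lactogenesis. The labels give no strain, genotype, treatment or age, leave the markers that DN cells lack unnamed, and do not say if a library comes from 1 animal or a pool. P-values therefore measure the spread between these libraries, which may be technical.

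Chemokine receptors are G protein-coupled receptors in the cell membrane that let a lymphocyte move towards the tissue that makes their ligand. Naive T cells use CCR7 to enter lymph nodes, whereas effector and resident cells carry receptors for ligands of inflamed tissue, epithelium or vessels. Which receptors a lymphocyte expresses is therefore a common guide to where it has been and where it can go.

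Levels are CPM (counts scaled to library size with TMM factors), and CD8 beta+ values come before DN NK1.1+ values. Library totals ran from 7961360 to 14367299 counts. The genes of the sorted proteins followed the labelled sort: Cd8b1, for CD8 beta, was at 890 to 1005 CPM against 1.21 to 4.30 CPM, and Klrb1c, for NK1.1, at 30.7 to 41.7 against 616 to 658 CPM. In DN NK1.1+ libraries 8 of 8 alpha-beta T cell genes were lower and 9 of 10 NK and innate lymphoid genes higher. The labels call these cells lymphocytes in one field and T cells in another, and T cell transcripts were present, with Cd3e at 513 to 527 CPM and Cd8a, for CD8 alpha, at 151 to 174 CPM. A pair of features touches the results below. CD8 beta+ replicate 3 had 1043 CPM of a list of 10 genes of naive and recirculating T cells, against 2288 and 2285 CPM in the other CD8 beta+ libraries. Both libraries numbered 3 had a higher sum over a list of 9 basal, stromal and endothelial genes (241 and 276 CPM, against 57.1 to 105 CPM in the rest). Of its endothelial genes, Cdh5 was highest in both (4.73 and 8.40 CPM). Pecam1, the most abundant gene of the list, was instead lowest in CD8 beta+ replicate 3, at 22.6 CPM.

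Of the 8 receptors, 6 fell and 1 rose in DN NK1.1+ libraries, and Ccr8 did not pass the test. Over all 13171 genes tested, 5.99% were lower and 7.84% higher at the same threshold, an adjusted p under 0.05. The same shares are the background for the other gene lists counted in the text. The groups did not overlap in any of the 8, lower in 6 and higher in Ccr2 and Ccr8, where 14.6% and 16% of all genes were apart in these directions. The median log2 fold change of the 8 was −1.38, against −0.00331 for all tested genes. In bulk RNA, fewer cells with a receptor and less of its RNA per cell cannot be told apart. Without any 1 of the DN NK1.1+ libraries, 5 receptors were lower, because Ccr7 was no longer called. Without both libraries numbered 3, a choice made after the data were seen, 6 were lower and 1 higher.

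**Figure D1:**
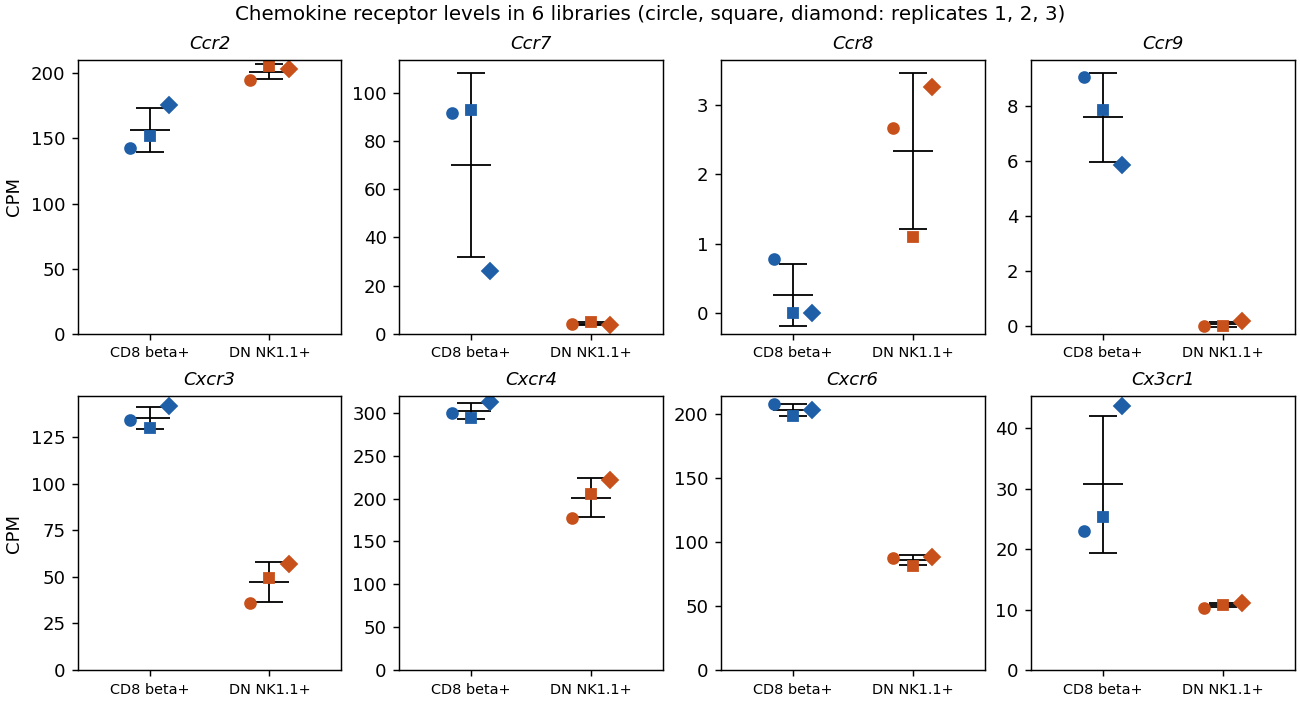
CPM of the 8 receptors in each library, with bars for the mean and SD of 3 libraries per group; each panel has its own linear axis. The DN NK1.1+ libraries lie below all CD8 beta+ libraries in 6 panels and above them for Ccr2 and Ccr8.

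Among the receptors for CXC chemokines, Cxcr3, Cxcr4 and Cxcr6 all fell, to different extents. Cxcr6, the receptor for the membrane-bound and shed chemokine CXCL16, is known as a marker of tissue-resident T cells. It stood at 207, 198 and 203 CPM in CD8 beta+ and 87.6, 81.4 and 88.5 CPM in DN NK1.1+ libraries. Its levels were even within each group and well apart between them. The log2 fold change was −1.24 (SE 0.0934, adjusted p = 2.38e-07), or 2.36-fold lower.

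Cxcr3 binds CXCL9 and CXCL10, which interferon-gamma induces in inflamed tissue. Its level was 135, 130 and 142 CPM in CD8 beta+ libraries and 35.9, 49.3 and 56.8 CPM in DN NK1.1+ libraries. The DN NK1.1+ libraries varied more among themselves, and all lay well below the lowest CD8 beta+ library. Its log2 fold change was −1.52 (SE 0.144, adjusted p = 3.59e-06), 2.86-fold lower.

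Cxcr4, the receptor for CXCL12 of stroma and bone marrow, fell least of the called genes. It had 300.3, 294 and 313 CPM in CD8 beta+ libraries and 177, 205 and 221 CPM in DN NK1.1+ libraries. The highest DN NK1.1+ library was below the lowest CD8 beta+ library. On the log2 scale Cxcr4 changed by −0.59 (95% interval −0.80 to −0.37, adjusted p = 8.05e-04).

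The ratio of Cxcr4 to Cxcr6 within a library does not depend on the scaling between libraries. On the log2 scale it was 0.58 ± 0.04 in CD8 beta+ libraries but 1.22 ± 0.18 in DN NK1.1+ libraries (SD, n = 3), so Cxcr6 fell more than Cxcr4. The ratio of Cxcr3 to Cxcr6 was −0.58 ± 0.06 and −0.88 ± 0.35, with the difference resting mostly on DN NK1.1+ replicate 1. Of 15 such ratios among the 6 receptors with counts in every library, 13 did not overlap between the groups. Each of these had p = 0.1 in an exact two-sided permutation test (0.115 after adjustment over the 15), the smallest p that 3 against 3 libraries allow. The 15 ratios reuse the same 6 genes, each of them apart between the groups, and so are not independent results. The share of such ratios that are apart among other genes was not computed.

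The RefSeq table of promoters (GRCm38.p6) held 7 of the 8 genes, the exception being Ccr7. RUNX factors, among them RUNX3, act in both CD8 T cells and NK cells, so the 250 bases before each start were searched for TGTGGT on both strands, a choice made with the values known. Cxcr3, Cxcr6 and Cx3cr1, which all fell, held 1 match each, and Ccr2, Ccr8, Ccr9 and Cxcr4 held none. Of 32851 promoters of this length, 14% held the motif. The matches begin 110, 10 and 54 bases before the RefSeq start and are shown in capitals below, on the gene's own strand. There they read as the reverse complement. By the GENCODE M21 spans given further on, the Cxcr3 and Cx3cr1 stretches lie within the gene. A match is a description of the letters and not evidence of a bound site.
Cxcr3 (chrX:101734240-101734269, minus strand): tgtattcacctgACCACAggcgtggcagaa
Cxcr6 (chr9:123806455-123806476, plus strand): acggaaacacagACCACAtcac
Cx3cr1 (chr9:120068333-120068362, minus strand): taaagatagggtACCACAcaggaaaccaga

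Of 3 further motifs, CTTTGA of TCF factors was found only before Cxcr6 among the 7 promoters, and GTGTGA of T-box factors only before Cxcr3. These occur in 13.8% and 12.3% of promoters. The E-box CANNTG was found before Ccr2, Ccr9, Cxcr3, Cxcr6 and Cx3cr1, and in 66.2% of all promoters. The Cxcr6 stretch that holds the RUNX, TCF and E-box letters, chr9:123806227-123806476 on the plus strand, is given because Cxcr6 had the smallest adjusted p of the 8 genes; capitals mark the RUNX letters.
Cxcr6: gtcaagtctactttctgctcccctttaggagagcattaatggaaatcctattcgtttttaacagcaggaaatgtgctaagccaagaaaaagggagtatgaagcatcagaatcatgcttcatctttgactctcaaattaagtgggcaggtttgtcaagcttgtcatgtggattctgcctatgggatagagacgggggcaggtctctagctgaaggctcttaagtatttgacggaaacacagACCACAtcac

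Among the receptors for CC chemokines, Ccr9 and Ccr7 fell by far more than the CXC receptors, while Ccr2 rose slightly. Ccr9, whose ligand CCL25 draws lymphocytes to the small intestine and thymus, had 70, 109 and 57 counts in CD8 beta+ libraries and 0, 0 and 2 counts in DN NK1.1+ libraries. These are 9.08, 7.86 and 5.86 CPM against a level that a count of 0 bounds at 0.258 and 0.251 CPM in DN NK1.1+ replicates 1 and 2. Summed over the groups, 236 against 2 counts are 139-fold apart (exact 95% binomial interval 38.0 to 1152, for counting error only) and Ccr9 passed the test (adjusted p = 1.63e-05). Without DN NK1.1+ replicate 3 the bound was at least 59.3-fold lower. A gene on the opposite strand, AC165425.1, overlaps 1932 bases of the Ccr9 exons, and the use of strand in counting is not given. It had 7, 22 and 4 counts, then 1, 1 and 0.

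Ccr7 guides naive and central memory T cells and mature dendritic cells to lymph nodes along CCL19 and CCL21. It was at 91.4, 92.9 and 25.9 CPM in CD8 beta+ libraries and 4.22, 4.85 and 3.63 CPM in DN NK1.1+ libraries. CD8 beta+ replicate 3 lay far below the other CD8 beta+ libraries and still above every DN NK1.1+ library. Its log2 fold change was −4.05 (SE 0.618, adjusted p = 0.0153), or 16.6-fold lower. It was −4.45 without CD8 beta+ replicate 3 (adjusted p = 3.33e-10). The call ended without DN NK1.1+ replicate 1, 2 or 3 (adjusted p = 0.0913, 0.0900 and 0.0916).

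Of the 10 listed genes of naive and recirculating T cells, 6 fell and 0 rose. The list of 10 naive and recirculating genes summed to 1192, 1184 and 1035 CPM in DN NK1.1+ libraries, close to the 1043 CPM of CD8 beta+ replicate 3. Ccr7 nevertheless stood at 25.9 CPM in that library and at no more than 4.85 CPM in a DN NK1.1+ library.

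**Figure D2:**
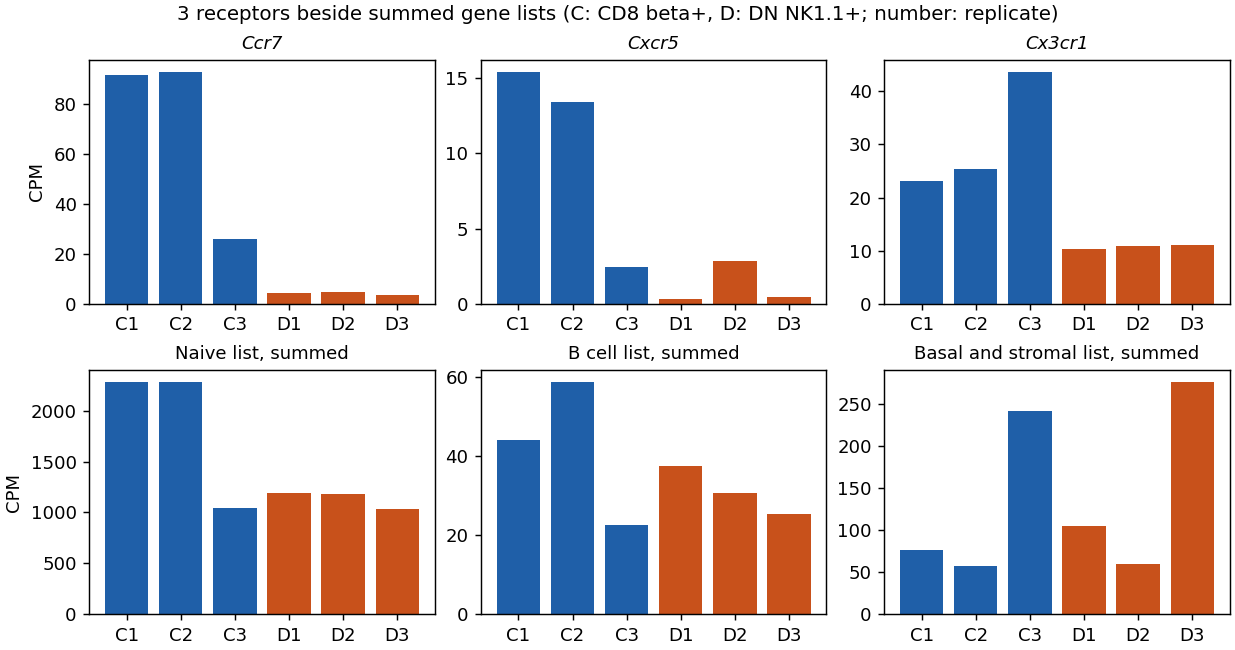
CPM of Ccr7, Cxcr5 and Cx3cr1 and the summed CPM of 3 gene lists in each library, as bars from 0; the lists hold 10 naive and recirculating T cell genes, 6 B cell genes and 9 basal, stromal and endothelial genes. CD8 beta+ replicate 3 (C3) is low for Ccr7, Cxcr5 and the naive list and high for Cx3cr1 and the stromal list.

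B cells also express Ccr7 and Cxcr5, the receptor for follicles. Cxcr5 was at 15.4, 13.4 and 2.47 CPM, then 0.344, 2.84 and 0.454 CPM. Its log2 fold change of −3.10 (95% interval −5.55 to −0.65) missed the threshold (adjusted p = 0.112). It followed Ccr7 in being low in CD8 beta+ replicate 3. Summed CPM of the 6 B cell genes, of which 1 passed the test as lower, ranged from 22.6 to 58.8 in CD8 beta+ and from 25.4 to 37.4 in DN NK1.1+ libraries. Of these, Ms4a1, for CD20, was at 8.30, 15.1 and 2.77 CPM, then 3.53, 3.76 and 0.227 CPM. The part of B cells in the Ccr7 and Cxcr5 values was not tested. The most abundant B cell list member was Jchain, at 4.98 ± 4.39 and 17.6 ± 1.71 CPM.

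Ccr2 binds CCL2 and is best known on inflammatory monocytes, and it is also carried by effector T cells and NK cells. It was at 143, 152 and 176 CPM in CD8 beta+ libraries and 195, 205 and 204 CPM in DN NK1.1+ libraries. The groups lay close together without overlap. Ccr2 had a log2 fold change of 0.36 (SE 0.0994, 95% interval 0.15 to 0.57, adjusted p = 0.0236), or 1.28-fold. The call ended without CD8 beta+ replicate 1 or 2 or DN NK1.1+ replicate 1 or 2, with adjusted p-values of 0.151, 0.113, 0.0586 and 0.0915.

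Ccr2 is also a myeloid transcript. Of 15 listed myeloid genes, 12 were tested, 2 rose and 0 fell, and the summed level of the 15 ran from 190.3 to 290.3 CPM in CD8 beta+ and from 387.5 to 472 CPM in DN NK1.1+ libraries. The most abundant was Itgax, for CD11c, which NK cells also express, at 112.9 ± 14.97 and 268.0 ± 10.97 CPM. Without it, in a sum added after the values were seen, the other 14 genes had 88.1, 108.3 and 160.3 CPM and then 214.9, 108.2 and 165.9 CPM, so that the groups overlapped. Csf1r, a macrophage receptor, was the other called gene, at 15.3 ± 3.77 and 28.2 ± 9.18 CPM. Lyz2, for the lysozyme of myeloid cells, was at 43.1 to 109.9 CPM over the 6 libraries and missed the threshold (adjusted p = 0.647). No listed myeloid gene was at 0 in all libraries. Their part in the Ccr2 value was not tested.

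Ccr8, a receptor for CCL1 found on some regulatory and skin-resident T cells, was rare in both groups. Its counts were 6, 0 and 0 in CD8 beta+ libraries, against 31, 13 and 43. In CPM this was 0.778 in the first CD8 beta+ library and 2.67, 1.09 and 3.25 in the DN NK1.1+ libraries. All its CD8 beta+ counts lay in replicate 1. Ccr8 had a log2 fold change of 3.33 (SE 1.18, 95% interval 0.79 to 5.86), and it did not pass the test (adjusted p = 0.0825). Summed counts were 12.3-fold apart (exact 95% interval 5.45 to 34.5, counting error only). Ccr8 was called by DESeq2 (adjusted p = 0.0280) and without CD8 beta+ replicate 1 (adjusted p = 0.0125), where it was at least 18.6-fold higher.

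Cx3cr1, the receptor for the membrane-bound chemokine CX3CL1, marks terminally differentiated effector T cells and is abundant on monocytes and macrophages. It was at 23.1, 25.4 and 43.7 CPM in CD8 beta+ libraries and 10.3, 10.8 and 11.1 CPM in DN NK1.1+ libraries. The DN NK1.1+ libraries were nearly level, and CD8 beta+ replicate 3, which had the least Ccr7 of the CD8 beta+ libraries, had the most Cx3cr1. The DN NK1.1+ libraries were lower than it for both genes. Cx3cr1 had a log2 fold change of −1.52 (SE 0.241, adjusted p = 4.28e-04), and −1.19 without that library (adjusted p = 0.00138). The part of myeloid cells in the Cx3cr1 values was not tested.

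**Figure D3:**
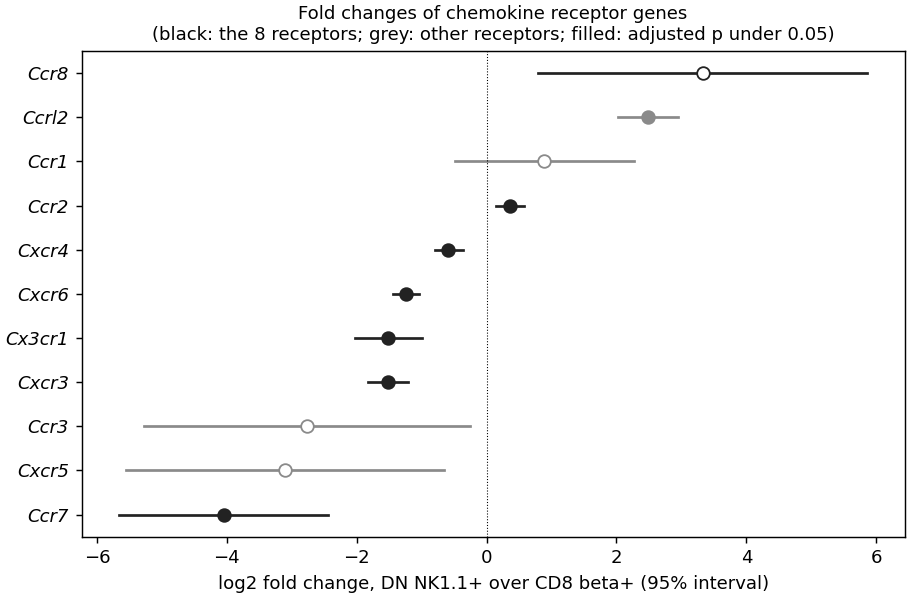
Log2 fold change of DN NK1.1+ over CD8 beta+ with its 95% interval for 7 of the 8 receptors (black) and 4 other tested receptor genes (grey); filled points passed the test. Ccr9 is left out because 2 counts in one group do not fix a fitted value; Ccr2 and Ccrl2 are the filled points above 0.

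Of 16 other chemokine receptor genes, 5 had enough counts to be tested, 1 rose and 0 fell. At an unadjusted p under 0.05, 2 were lower, and DESeq2 called 2 lower. The gene that rose was Ccrl2, an atypical receptor that binds chemerin and does not itself drive migration. It was at 5.06, 4.40 and 4.62 CPM in CD8 beta+ and 26.7, 24.2 and 27.6 CPM in DN NK1.1+ libraries, a log2 fold change of 2.48 (SE 0.216, adjusted p = 1.2e-06). Among the untested genes, all 29 counts of Ccr4 lay in CD8 beta+ libraries, so that it was at least 11.36-fold lower in the DN NK1.1+ group. All 21 counts of Xcr1 lay in DN NK1.1+ libraries, where it was at least 5.96-fold higher. Ccr6 (32 against 2 counts) was 18.8-fold apart, with 4.80 to 162 as its exact 95% interval. These bounds and intervals cover counting error only, and these 3 genes were named after their values were seen.

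Levels of different genes were compared per kilobase of exon. In CD8 beta+ libraries the order was Cxcr4 at 167 ± 5.17 CPM per kb, Cxcr6 at 105 ± 2.30, Cxcr3 at 78.3 ± 3.41, Ccr7 at 35.4 ± 19.3, Ccr2 at 23.2 ± 2.50, Cx3cr1 at 6.82 ± 2.50, Ccr9 at 0.741 ± 0.159 and Ccr8 at 0.221 ± 0.382. The first 3 did not overlap with their neighbours. Ccr7 overlapped with Ccr2 through replicate 3, at 13.1 CPM per kb.

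In DN NK1.1+ libraries Cxcr4 and Cxcr6 again led, at 111 ± 12.5 and 44.4 ± 2.01 CPM per kb. Ccr2 at 29.8 ± 0.809 and Cxcr3 at 27.3 ± 6.12 overlapped each other. Cx3cr1, Ccr7 and Ccr8 followed at 2.38 ± 0.0818, 2.14 ± 0.308 and 1.99 ± 0.954 CPM per kb and overlapped from one to the next. Ccr9 came last of the 8. With the longest coding transcript in place of all exons, the order of the 8 within each group stayed as given, and Ccr9 passed Ccr3 in CD8 beta+ libraries.

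Summed over all 24 receptor genes, the level was 456, 447 and 445.5 CPM per kb in CD8 beta+ and 242, 255 and 279 CPM per kb in DN NK1.1+ libraries. The 8 receptors made up 91.9% to 93.2% and 82.6% to 86.5% of these sums. The share of Cxcr3 was 17.4% on average in CD8 beta+ libraries but 10.5% in DN NK1.1+ libraries, and that of Ccr2 was 5.16% and 11.6%. Cxcr4 held 37.2% and 43.0%. Within a library, the log2 ratio of Ccr2 to Cxcr3 counts was 0.20 ± 0.11 in CD8 beta+ libraries but 2.11 ± 0.30 in DN NK1.1+ libraries, a shift of 1.91 (exact permutation p = 0.1, the smallest possible).

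**Figure D4:**
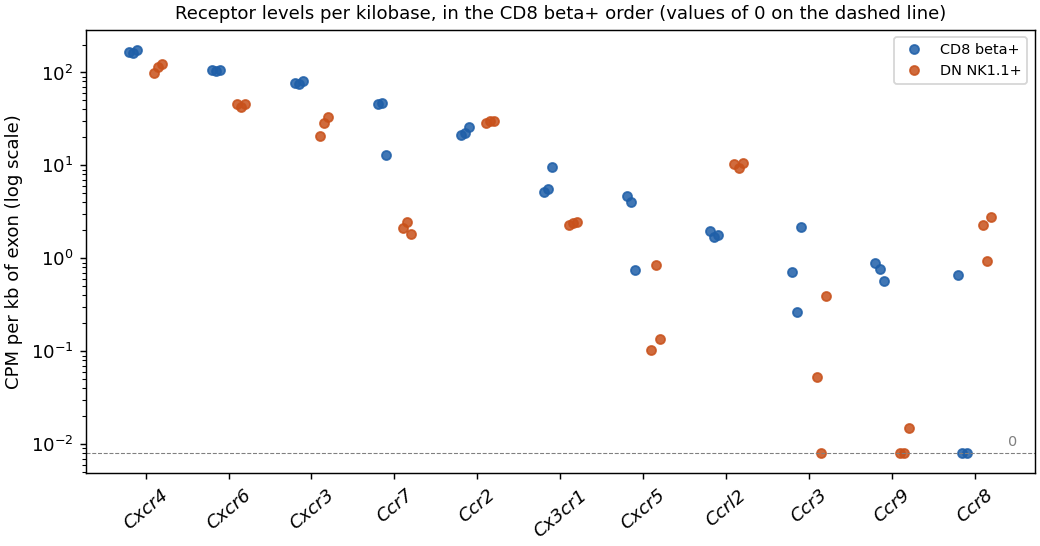
CPM per kb of exon, on a log axis, for 11 receptor genes in the order of the CD8 beta+ means; each point is a library, and values of 0 lie on the dashed line. The 2 groups separate for all 8 receptors and for Ccrl2, and overlap for Cxcr5 and Ccr3.

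Of the 8 receptors, 5 lie on chromosome 9 (mm10, GENCODE M21), where receptor genes form a cluster. Ccr9 (chr9:123678439-123784330), Cxcr6 (chr9:123806475-123811760) and Ccr2 (chr9:124101950-124113557) are protein-coding genes on the plus strand within that cluster. Ccr9 and Cxcr6, separated by 22.1 kb, both fell. Ccr2, further along, rose by 1.28-fold. Xcr1, Ccr1, Ccr1l1 and Ccr3, which lie between Cxcr6 and Ccr2, were at no more than 7.09 CPM in any library.

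Cxcr6 sits in an intron of Fyco1 on the opposite strand, with no shared exon bases. Fyco1 was at 31.8, 43.5 and 35.9 CPM, then 26.8, 22.1 and 23.7 CPM. Cx3cr1 (chr9:119901616-120069879, minus strand) and Ccr8 (chr9:120092114-120094906, plus strand) are a second pair on this chromosome, 22.2 kb apart. Their fold changes had opposite signs, and that of Ccr8 did not pass the test. Ccr7 (chr11:99144196-99155077, minus strand), Cxcr4 (chr1:128588199-128592293, minus strand) and Cxcr3 (chrX:101731535-101734269, minus strand) lie alone among the 8.

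Reads from sequence that a receptor shares with another gene could have been split in counting. Of the 6758 runs of 50 bases in Ccr2 transcripts, 1.91% also occur in transcripts of another gene. The share was 20.1% of 10306 runs for Ccr9, with 1839 runs shared with AC165425.1, and 1.06% of 4453 runs for Cx3cr1. For Ccr7, Ccr8, Cxcr3, Cxcr4 and Cxcr6 no such run was shared.

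**Figure D5:**
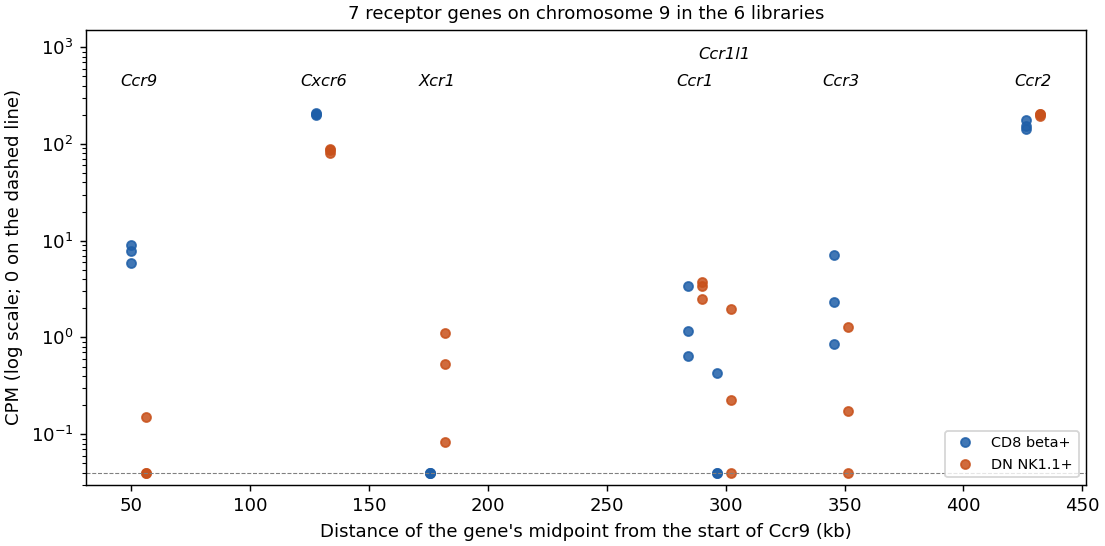
CPM, on a log axis, of 7 receptor genes on chromosome 9, placed by the distance of each gene's midpoint from the start of Ccr9; each point is a library and values of 0 lie on the dashed line. Ccr9 and Cxcr6 are lower in DN NK1.1+ libraries, and Ccr2, at the far end, is higher.

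Ligands of the 8 receptors were mostly at low levels in both populations. Of 14, 5 were tested, 1 rose and 0 fell (0 lower also at an unadjusted p under 0.05, by DESeq2 and by limma-voom). Cxcl10, a ligand of CXCR3, rose from 7.24 ± 1.76 to 13.6 ± 3.12 CPM (log2 fold change 0.91, adjusted p = 0.0402). Its call ended without CD8 beta+ replicate 1 or 2 or DN NK1.1+ replicate 1 or 2. Ccl25, the ligand of CCR9, was at 13.7 ± 2.39 and 21.8 ± 6.67 CPM (adjusted p = 0.0950). Cxcl16 was at 6.01 ± 1.40 and 7.67 ± 2.08 CPM (adjusted p = 0.583).

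Of 22 other chemokines, 8 were tested, 3 rose and 0 fell. At an unadjusted p under 0.05, 1 was lower, and DESeq2 and limma-voom each called 1 lower. Xcl1, the ligand of XCR1 on cross-presenting dendritic cells, rose from 48.9 ± 7.85 to 238 ± 38.3 CPM. Ccl3 and Ccl9, which both bind CCR1, were higher as well. Ccl3 went from 12.8 ± 3.44 to 40.6 ± 8.88 CPM and Ccl9 from 2.47 ± 0.625 to 6.89 ± 0.916 CPM. The median log2 fold change was 0.89 over the tested ligands of the 8 receptors and 0.81 over the tested other chemokines, against −0.00331 for all genes.

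The machinery below the receptors was measured in full: all 34 listed genes passed the filter, 6 rose, 6 fell and 22 did not pass the test, with a median log2 fold change of 0.01. Over all genes tested, 7.84% rose and 5.99% fell. Without CD8 beta+ replicate 1 or 2, 3 of the listed genes rose. Grk5, a kinase that marks activated receptors for arrest, rose from 9.13 ± 4.11 to 25.0 ± 4.32 CPM, and Arrb1, for the arrestin that then binds, rose from 25.9 ± 3.20 to 41.9 ± 0.617 CPM. Gnaq, for a G protein alpha subunit outside the inhibitory class, rose from 7.53 ± 1.91 to 16.4 ± 1.55 CPM. Among the decreases were Pik3r5, a subunit of the PI3-kinase that G proteins activate, from 134 ± 10.8 to 77.2 ± 14.7 CPM, and Gng2, a G protein gamma subunit, from 155 ± 14.1 to 107.6 ± 1.998 CPM. Rac2, a small GTPase of leukocyte movement, fell from 956 ± 103 to 685 ± 86.9 CPM. Gnai2, the main inhibitory G protein subunit of lymphocyte migration, was at 399.5 ± 31.7 and 417.5 ± 45.1 CPM (log2 fold change 0.06, 95% interval −0.16 to 0.29).

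The genes most like each receptor were found from the root mean square difference of centred log2 CPM over the 6 libraries, as a description. For Ccr7 the nearest was Il6ra, at 0.353, which had 53.6, 54.3 and 20.8 CPM in CD8 beta+ and 3.61, 1.92 and 2.65 CPM in DN NK1.1+ libraries, with CD8 beta+ replicate 3 low as for Ccr7. Sit1 and Gm8369 followed at 0.545 and 0.564. For Ccr9 they were Art2b at 0.366, Gzmk at 0.530 and Ly6a at 0.546. For Ccr8 they were Kit, Mcam and Nuak2, at 0.595 to 0.621.

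The other receptors, which had smaller absolute log2 fold changes, had much closer neighbours. Cxcr3 lay nearest 9930111J21Rik1 at 0.0656, then Hdac7 and Phf11b. Cx3cr1 lay nearest the receptor segment Trbv19 at 0.148, which was likewise highest in CD8 beta+ replicate 3, at 40.1 CPM, then Tspan3 and Gm10800. Cxcr6 lay nearest Klf3, Fam234b and Rab11fip4 at 0.0782 to 0.0917, and Cxcr4 nearest Gpr132, Nlrc5 and Rmnd1 at 0.0575 to 0.0704. Ccr2 lay nearest Anxa11, Appl1 and Ttc7b at 0.0227 to 0.0325. For Ccr2, 33.2% of genes lay within 0.25, so its neighbours are little set apart, against 0% for Ccr7, Ccr8 and Ccr9.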

How the data were processed

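The table deposited by the authors holds estimated counts per gene, not normalized, a unit inferred from the values: 7.12% to 9.89% of them per library are not whole. Per the submitters' processing notes the build is mm10; its aligner, counter, annotation and strand setting: not given in the sources used here. Headings of both ID columns are interchanged. All 55450 IDs matched GENCODE M21. Counts were rounded and tested in R 4.3.3 by edgeR 4.0.16 (quasi-likelihood, robust fit, group alone, TMM scaling, minimum count 10, minimum total 15), with two-sided p-values adjusted by Benjamini-Hochberg over 13171 genes. Standard errors and 95% intervals were derived from the F statistic. The fit was tested on simulated data. Where a group had 3 or fewer counts, ratios of summed counts are given, and bounds use 3 counts over the group. Alternatives were DESeq2 1.42.0, limma-voom (limma 3.58.1), 3 scalings, 2 filters, a non-robust fit, a replicate block and leaving out libraries. The 8 receptors, the gene lists and the rule for named genes (all 8; other receptors called or at 5 CPM or more; called ligands and up to 6 called signalling genes at 5 CPM or more in the higher group; 3 genes of like profile with a mean of at least 5 CPM; the top gene of each marker list) were chosen with earlier results of these data known. Other genes were named after their values were seen, and some genes that the rule or the lists hold are not reported here. Chi-square per degree of freedom between libraries of a group was 9.46 to 25.7, so none was a copy. The top genes of the marker lists not named elsewhere were Il2rb and Csn2. The 9 luminal genes summed to 493.5 to 782 CPM in CD8 beta+ and 273 to 1582 CPM in DN NK1.1+ libraries.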

Additional observations from a re-analysis of the deposited data

How the results depend on the processing

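Over 16 alternatives no receptor's log2 fold change reversed in sign. Ccr9, Cxcr3, Cxcr4, Cxcr6 and Cx3cr1 stayed past the threshold in every one. Counts of called genes have no sign to reverse, and their changes are given below. Leaving out 1 library at a time gave log2 fold changes of 0.29 to 0.44 for Ccr2 and −4.45 to −3.80 for Ccr7, and adjusted p-values of 0.0125 to 0.255 for Ccr8, which gave no value with a minimum count of 50. Ccr8 was called by DESeq2 (0.0280), with no filter (0.0249) and with the replicate block (0.0331), so that 2 of the 8 receptors were higher under each of these, and 0 to 1 when a library was left out. Without CD8 beta+ replicate 1, the 1 higher receptor was Ccr8 and not Ccr2. Other receptors called lower numbered 2 by DESeq2, 3 with no filter, 2 with the replicate block, 1 with the non-robust fit, 1 without both libraries numbered 3 and 0 to 1 without a library. Ligands of the 8 called higher numbered 2 with no filter and 0 to 1 without a library. Other chemokines called lower numbered 1 with upper-quartile scaling, DESeq2, limma-voom, no filter, the replicate block and without both libraries numbered 3, and 0 to 1 without a library. Signalling genes called higher numbered 3 to 6 without a library. Over all genes, 681 to 1093 were higher and 499 to 883 lower without a library, the lowest without CD8 beta+ replicate 1. The causes were not tested. Same-numbered libraries deviated together with correlations of −0.05, 0.189 and 0.256, so the numbers were not taken to pair them. With the block, 1137 genes were higher and 945 lower. A count was worth 0.0721 to 0.13 CPM, which limits Ccr8 and Ccr9 most.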
